A study of Mus musculus with 8 samples.

Results

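The response of Ly6Chi infarct macrophages to interleukin 21 (IL-21) was read from 4 of the 8 libraries deposited, chosen by their titles. Ly6Chi cells carry a high level of the surface antigen Ly6C, and the other 4 libraries hold Ly6Clo cells, which carry little of it. All 8 libraries came from wild-type C57BL/6 mice aged 8 weeks, with cells sorted from the heart 3 days after myocardial infarction and then cultured for 24 hours in medium with fetal calf serum. In 2 of the Ly6Chi libraries the medium held IL-21 at 100 ng/mL, and in the other 2 it did not. The titles number the libraries 1 and 2 in each group. The labels do not say whether the numbers mark separate mice, pooled hearts, cultures or runs, so the p-values reflect the spread between the libraries at hand and that spread may be technical. Libraries from mice lacking the IL-21 receptor, which the series text mentions, were not analysed here.

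IL-21 is a cytokine made mainly by activated helper T cells and natural killer T cells. It binds a receptor built from its own chain (Il21r) and the common gamma chain (Il2rg), which is shared with several other cytokines, and signals through the kinases JAK1 and JAK3 to STAT factors, above all STAT3. STAT3 switches on its own brake, Socs3. Ly6Chi macrophages arise from blood monocytes that enter the infarct in the first days and are known for inflammatory cytokines, proteases and the clearing of dead tissue.

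The deposited values are expected counts per gene from libraries that read the 3′ end of each messenger RNA. Totals in the Ly6Chi libraries were 261205 and 284174 counts without IL-21 and 287131 and 224329 with it, so 3 counts correspond to 11.3 to 14.9 CPM, the unit that scales counts to a common library size, and scarce transcripts are read poorly. The labelled subset was checked on Ly6c2, which encodes the sorted antigen: it stood at 545 and 412 CPM without and 505 and 372 CPM with IL-21, against 12 to 74.6 CPM in the 4 Ly6Clo libraries. Ly6c2 shares its 3′ end with Ly6c1 (98.25% identity over 400 bases), so the 2 genes cannot be told apart with certainty. Ly6c2 belongs to a list of 12 Ly6Chi monocyte markers, not all of which separated the subsets. Without IL-21, Ccr2 averaged 75.7 CPM in Ly6Chi and 71.3 CPM in Ly6Clo, while Vcan averaged 73.6 and 29.3 CPM. Of 12 macrophage markers 11 were above 0 in the Ly6Chi libraries, with a summed level of 25700 to 29600 CPM, while Itgam was listed at 0 in all 8. The IL-21 gene itself had 0 counts in every library.

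Libraries of the same number resembled each other more than libraries of the same treatment. Over the 2475 genes with a mean of at least 20 counts in the 4 libraries, the correlation of log2 CPM across genes was 0.940 between the 2 libraries numbered 1 and 0.939 between those numbered 2. It was 0.903 between the 2 stimulated and 0.923 between the 2 unstimulated libraries. Genes are not independent replicates, and these values only describe the libraries. The first principal component held 52.6% of the variance and put both libraries numbered 1 on one side and both numbered 2 on the other. The second held 29.3% and separated the stimulated from the unstimulated libraries. Over all 8 libraries, 431 genes (8.2%) differed between numbers 2 and 1 by an edgeR test that adjusts for group.

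Arg1, which encodes arginase 1, the enzyme that splits arginine into ornithine and urea, rose with IL-21. Its level was 410.0 and 595 CPM without and 1822 and 1738 CPM with IL-21 in libraries 1 and 2 in that order. Both stimulated libraries lay above both unstimulated ones, and the group means were 502 ± 131 and 1780.0 ± 59.8 CPM (SD, n = 2 each). The fitted change was 3.54-fold, a log2 difference of 1.82 (SE 0.23), and the Benjamini-Hochberg adjusted p was 0.00694 (edgeR, quasi-likelihood). Taken number by number, the log2 difference was 2.13 within number 1 and 1.54 within number 2. Arg1 (ENSMUSG00000019987) lies at chromosome 10, 24915221 to 24927484, minus strand of GRCm38 (mm10). Without the stimulated library 1 the log2 difference was 1.80 with an edgeR adjusted p of 0.0535, and without the unstimulated library 1 it was 1.60 with 0.174, so the call was lost while the direction held. The lone library left in a group was assumed to vary like the other groups. Each library read many cells at once, so more cells of a type and more RNA per cell cannot be told apart in any of these values.

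Arg1 was the only gene of 5256 tested that passed (0.019% of the genes tested, higher), and 0 genes passed as lower. At an unadjusted p under 0.05 by the same edgeR test there were 185 genes, of which 111 were higher (2.11%) and 74 lower (1.41%). DESeq2 called 1 gene, with 44 at an unadjusted p under 0.05, and limma-voom called 1, with 152. A fit with the replicate number as a block treats same-numbered libraries as pairs, although no label says so, and 14 genes passed in it. These are Arg1, Tmem8, Socs3, Nxpe5, Ppbp, Il4ra, Tgfbi, Pf4, Naaa, Ccl6, Ccl12, Ccl8 and Hmox1, all higher (0.247%), and Lpl, lower (0.019%). Their values follow by role, and none but Arg1 passed in the fit without that block.

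Across all genes the difference was centred on no change. The fitted median over the 5256 genes was 0.00 on the log2 scale, with 2642 genes higher and 2614 lower. Both stimulated libraries lay above both unstimulated ones for 834 genes (15.9%) and below both for 820 (15.6%). A 2 against 2 comparison of a single gene cannot go below p = 0.333 in a two-sided exact permutation test. The sign within number 1 matched that within number 2 for 1445 genes as higher and for 1407 as lower, while 2404 genes had opposite signs.

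How well the 2 numbers matched went with how many counts a gene had. Among the 922 genes with a mean under 10 counts in the 4 libraries, 51.3% had the same sign in both numbers and the median gap between the 2 log2 differences was 0.62. Among the 158 genes with a mean of at least 200 counts, 62.7% had the same sign and the median gap was 0.18. The Pearson correlation of the within-number differences across genes was 0.108 over all 5256 genes, 0.385 over the 923 genes that average 50 counts or more, and 0.641 over those with at least 200. The Spearman rank correlation, which extreme genes move less, was 0.107, 0.278 and 0.432 over the same sets. These are descriptions across genes, and the 4 libraries enter all of them.

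**Figure D1:**
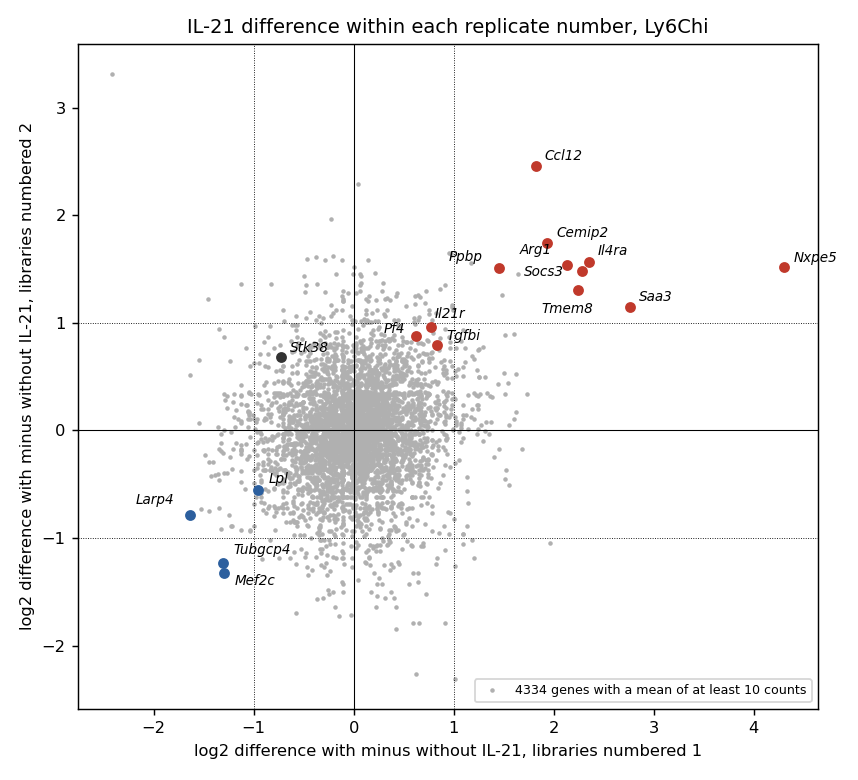
Log2 difference with minus without IL-21 within the libraries numbered 1 (horizontal axis) and within those numbered 2 (vertical axis) for the 4334 genes that average at least 10 counts in the 4 Ly6Chi libraries, as grey points, with dotted lines at 2-fold. Named genes are red where higher in both numbers, blue where lower in both and dark where the signs differ, and Nxpe5 lies furthest to the right at 4.31 within number 1 and 1.52 within number 2.

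A difference of at least 2-fold in one direction within both numbers was met by 12 of 4334 genes as higher (0.277%) and by 2 as lower (0.0461%). The 12 are Arg1, Tmem8, Socs3, Nxpe5, Ppbp, Il4ra, Cemip2, Naaa, Ccl12, Ccl8, Saa3 and Ap1b1, and the 2 lower are Mef2c and Tubgcp4. Ap1b1, which encodes a subunit of a clathrin adaptor, falls outside the naming rule and was named after its values were seen, 32.8 and 19.1 CPM without and 82.8 and 69.5 CPM with IL-21. Of these 14 genes Arg1 and Saa3 had a mean above 200 counts, while the 1859 tested genes with 10 to 20 counts had a median gap of 0.50 between the numbers.

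Socs3 (ENSMUSG00000053113; chromosome 11, 117966079 to 117970047, minus strand), the feedback inhibitor of receptors that signal through STAT3, had 41.0 and 38.1 CPM without and 226 and 119 CPM with IL-21. Both stimulated libraries were above both unstimulated ones, and library 1 with IL-21 was the highest. The log2 difference was 2.14 (SE 0.40), with an edgeR adjusted p of 0.171, and 2.28 within number 1 and 1.49 within number 2. With 1 library left out, the Socs3 difference ranged from 1.59 (edgeR adjusted p 0.986, without the stimulated library 1) to 2.50 (0.0359, without the stimulated library 2). In raw numbers these levels rest on 10, 10, 60 and 24 counts.

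The gene's promoter holds the spaced palindrome TTCNNNGAA that STAT factors are known to bind. Windows of 300 bases, 250 before to 50 after an annotated start, were taken from RefSeq (GRCm38.p6) and searched for it on both strands, which read the same. It occurred in 2726 of 32851 windows (8.3%) and in at least 1 window of 320 of the 4097 tested genes that have a window (7.8%). Single genes looked up were the 15 higher and 10 lower ones that passed in either fit or had the smallest p-values. Of these 10 and 8 had a window, and other genes described here were not looked up individually. A match was found for Socs3 among the higher and Mef2c among the lower genes, so both windows are shown, with the match in capitals and each read 5′ to 3′ along its gene's strand. The Socs3 window is chr11:117969317-117969616, minus strand, with the match starting 154 bases before the start site, and the Mef2c window is chr13:83503784-83504083, plus strand, with the match starting 157 bases before it.
Socs3: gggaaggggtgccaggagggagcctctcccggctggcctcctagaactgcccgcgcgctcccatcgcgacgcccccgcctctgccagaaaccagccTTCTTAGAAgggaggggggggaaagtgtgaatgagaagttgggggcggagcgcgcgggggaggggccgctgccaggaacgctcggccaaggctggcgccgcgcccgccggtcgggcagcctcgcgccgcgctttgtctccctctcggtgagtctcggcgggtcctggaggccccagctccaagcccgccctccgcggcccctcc
Mef2c: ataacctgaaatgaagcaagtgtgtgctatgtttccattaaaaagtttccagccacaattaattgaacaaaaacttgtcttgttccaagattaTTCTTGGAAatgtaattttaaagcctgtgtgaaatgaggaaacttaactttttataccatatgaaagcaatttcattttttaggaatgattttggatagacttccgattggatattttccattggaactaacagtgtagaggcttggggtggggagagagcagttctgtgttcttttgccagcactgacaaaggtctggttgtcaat
The matched letters were TTCTTAGAA in Socs3 and TTCTTGGAA in Mef2c, 2 genes whose log2 differences had opposite signs. Such a match describes these letters and is not evidence of binding. Arg1, Tmem8, Cemip2, Fbxl5, Rgs1, Lpl and Hmox1 had no entry.

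Among receptor genes, Il4ra (ENSMUSG00000030748; chromosome 7, 125552120 to 125579474, plus strand) encodes the alpha chain through which interleukins 4 and 13 act. It stood at 69.7 and 172 CPM without and 384 and 521 CPM with IL-21. Both stimulated values of Il4ra were more than 2 times the higher unstimulated one. The log2 difference was 1.89 (SE 0.42), with an edgeR adjusted p of 0.79, and 2.35 within number 1 and 1.57 within number 2. With 1 library left out it ranged from 1.41 without the unstimulated library 1 to 2.69 without the unstimulated library 2. Il21r, the specific chain of the IL-21 receptor, lies next to Il4ra on chromosome 7, with 23.95 kb and no annotated gene between them. It had 98.4 and 137 CPM without and 173 and 273 CPM with IL-21, again without overlap, and a log2 difference of 0.90 (SE 0.30), with 0.77 within number 1 and 0.96 within number 2. Il2rg, the shared gamma chain, had 242 and 160.2 CPM without and 248 and 209 CPM with IL-21, and its groups overlapped (0.19 (SE 0.29)).

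The kinases and STAT factors described here showed no called difference. Jak1 had 430.5 and 477 CPM without and 380.3 and 447 CPM with IL-21, a log2 difference of -0.14 (SE 0.22). Jak2 had -0.18 (SE 0.47) and Tyk2 -0.67 (SE 0.52). Jak3, the kinase that sits on the gamma chain, had 0 to 6 counts per Ly6Chi library and was not tested. Stat3 stood at 107 and 175 CPM without and 196 and 204 CPM with IL-21, with both stimulated libraries above both unstimulated ones, a log2 difference of 0.49 (SE 0.28) and 0.84 within number 1 and 0.21 within number 2. Stat2 was at 0.23 (SE 0.28) and Stat6 at -0.15 (SE 0.36). The levels of Stat5b overlapped, at 41.0 and 26.7 CPM without and 18.8 and 39.7 CPM with IL-21, and Stat5a had 16 counts over the 4 libraries.

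Of 14 feedback inhibitors of JAK-STAT signalling 9 were tested, 8 of which were higher with IL-21. In 4 both stimulated libraries lay above both unstimulated ones and in 0 below, beside 15.9% and 15.6% of all genes tested. Their median log2 difference was 0.24, beside 0.00 over all genes tested. This and the other gene lists were written with earlier results of these data known, so their shares and medians are not independent evidence. After Socs3 came Ptpn1, which encodes a tyrosine phosphatase that acts on JAK kinases, with 254 and 229 CPM without and 549.7 and 328 CPM with IL-21 and 1.09 within number 1 and 0.51 within number 2. The related phosphatase gene Ptpn2 had 28.7 and 26.7 CPM without and 52.7 and 44.7 CPM with IL-21. Socs1 had 24 counts over the 4 libraries and Cish had 0, and neither was tested.

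**Figure D2:**
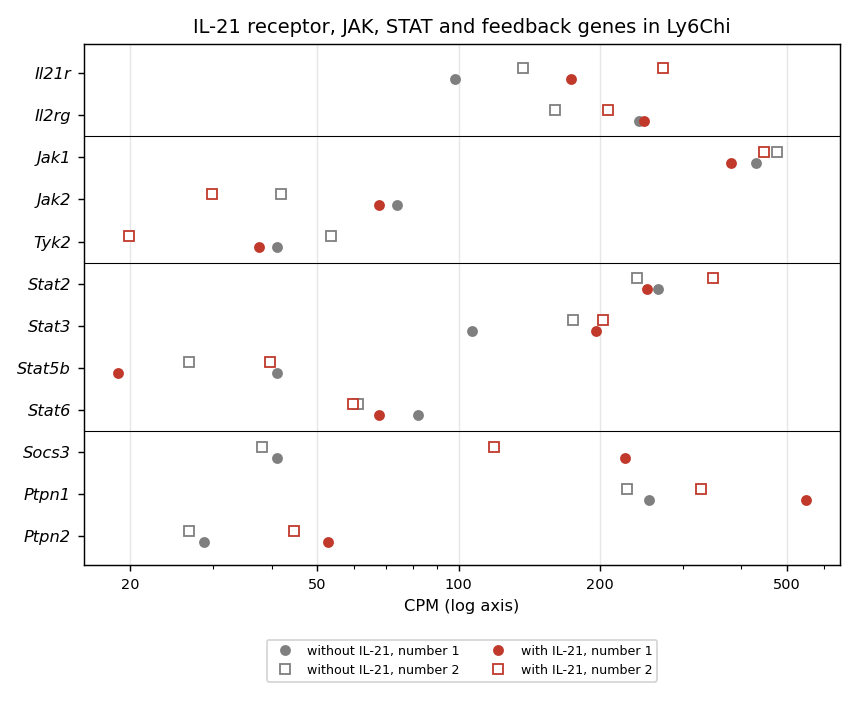
CPM on a log axis of receptor chains, JAK kinases, STAT factors and feedback genes in each of the 4 Ly6Chi libraries, with circles for number 1, squares for number 2, grey without and red with IL-21. Socs3, Il21r, Stat3, Ptpn1 and Ptpn2 have both red symbols to the right of both grey ones, while the levels of Il2rg, Jak1, Jak2, Stat2, Stat5b and Stat6 overlap.

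The list of genes that textbooks link to STAT3 had 27 tested members of 38, of which 23 were higher and 4 lower with IL-21. In 15 of the 27 both stimulated libraries lay above both unstimulated ones, and in 1 below, where 15.9% and 15.6% of all genes did so. The median was 0.40 in the fit, 0.21 within number 1 and 0.32 within number 2. In the fit without the replicate block none of the 27 passed, and 7 were higher at an unadjusted p under 0.05. In the fit with it Socs3 and Il4ra passed, with edgeR adjusted p-values of 0.00225 and 1.27e-05. Socs3, Il4ra, Il21r, Fgl2 and Saa3 were already known from these samples when the list was written, so it is not independent evidence of its direction.

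Saa3, which encodes an acute-phase serum amyloid A protein made by macrophages, was uneven between the stimulated libraries. It had 365 and 305 CPM without and 2515 and 685 CPM with IL-21, and the stimulated library 1 stood far above the other 3. The log2 difference was 2.26 (SE 0.67), 2.76 within number 1 and 1.15 within number 2, and with 1 library left out it ranged from 1.04 to 2.90. Hif1a, the oxygen-regulated transcription factor, had 156 and 129.7 CPM without and 297 and 209 CPM with IL-21, and Bcl3, a nuclear partner of NF-kappaB, had 119 and 61.0 CPM without and 147 and 169 CPM with IL-21. Junb and Zfp36, an AP-1 subunit and an RNA-binding protein that shortens the life of cytokine messages, had log2 differences of 0.44 (SE 0.25) and 0.44 (SE 0.25). Junb overlaps Prdx2 on the other strand by 173 exonic bases, so its counts are uncertain.

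Chemokine genes were tested as the CXC and CC families, and no member of either passed without the replicate block. Of 7 tested members of the CXC family, Ppbp and Pf4 among them, 6 were higher and 1 lower. In 5 both stimulated libraries lay above both unstimulated ones and in 1 below, beside 15.9% and 15.6% of all genes tested, with a median of 0.57. Like the other lists, it was written with earlier results of these data known and only describes these genes. Ppbp, a chemokine best known from platelets, had 49.2 and 68.6 CPM without and 147 and 209 CPM with IL-21, with a log2 difference of 1.57 (SE 0.38) and 1.45 within number 1 and 1.51 within number 2. Pf4, platelet factor 4, had 1788 and 1934 CPM without and 2752 and 3549.9 CPM with IL-21, with 0.76 (SE 0.21) and 0.62 within number 1 and 0.87 within number 2. Both genes had stimulated levels above the unstimulated ones without overlap, and they lie 2.37 kb apart on chromosome 5. Cxcl5, a neutrophil attractant 6.89 kb from Ppbp, had 45.1 and 19.1 CPM without and 75.3 and 54.6 CPM with IL-21. Cxcl10, the interferon-induced member, was the 1 lower gene, with 197 and 168 CPM without and 79.1 and 94.3 CPM with IL-21.

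Ppbp and Pf4 are also markers of another cell type. Of 12 markers of platelets and megakaryocytes, Itga2b, Gp1ba, Gp1bb, Gp9 and Tubb1 were listed at 0 in all 4 Ly6Chi libraries, as was the macrophage gene Itgam. The summed level of the list was 1850 and 2010 CPM without and 2920 and 3760 CPM with IL-21, nearly all of it from Pf4 and Ppbp themselves, and the part of platelets in these values was not tested. Pf4 is also on the list of resident macrophage markers, whose sum was 3460 and 3790 CPM without and 5030 and 5630 CPM with IL-21, with 13 of 15 genes above 0 and Lyve1 and Cx3cr1 at 0. Much of that sum was Pf4 itself, at 1790 and 1930 CPM without and 2750 and 3550 CPM with IL-21. The Ly6Chi monocyte markers summed to 2200 and 2870 CPM without and 2410 and 2950 CPM with IL-21. Their median log2 difference was 0.43, beside 0.33 for the resident list.

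Of 9 tested CC chemokines 8 were higher, 2 lay above without overlap, beside 15.9% of all genes tested, and the median was 0.22. Ccl6 had 238 and 183 CPM without and 595 and 318 CPM with IL-21, a log2 difference of 1.13 (SE 0.38). Ccl12, a ligand of the monocyte receptor Ccr2, had 16.4 and 45.8 CPM without and 75.3 and 283 CPM with IL-21, which do not overlap, and its log2 difference of 2.44 (SE 1.02) was 1.82 within number 1 and 2.46 within number 2. With 1 library left out it ranged from 1.24 without the stimulated library 2 to 3.37 without the unstimulated library 2. In the fit with the replicate block Ppbp, Pf4, Ccl6, Ccl12 and Ccl8 passed, as listed above. Ccl8, 11.78 kb from Ccl12 on chromosome 11, had 32.8 and 126 CPM without and 117 and 357 CPM with IL-21. Its groups overlapped, because library 2 without IL-21 was above library 1 with it, yet each number gave a similar difference, 1.64 within number 1 and 1.46 within number 2. Hmox1, heme oxygenase 1, repeated that pattern with 2619.7 and 7864 CPM without and 3957 and 12487 CPM with IL-21 and 0.59 within number 1 and 0.67 within number 2, so its fitted log2 difference was 0.65 (SE 1.11).

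Ccr2, the chemokine receptor that brings Ly6Chi monocytes into tissue, had 36.9 and 114 CPM without and 97.9 and 164 CPM with IL-21 and overlapped. Il1b, an inflammatory cytokine of early infarct macrophages, had 11 and 4 counts without and 12 and 1 with IL-21. Mmp12, a macrophage elastase, had 336 and 91.5 CPM without and 233 and 69.5 CPM with IL-21 and followed the numbers rather than the treatment. Mmp9 had 13 counts over the 4 libraries and was not tested.

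**Figure D3:**
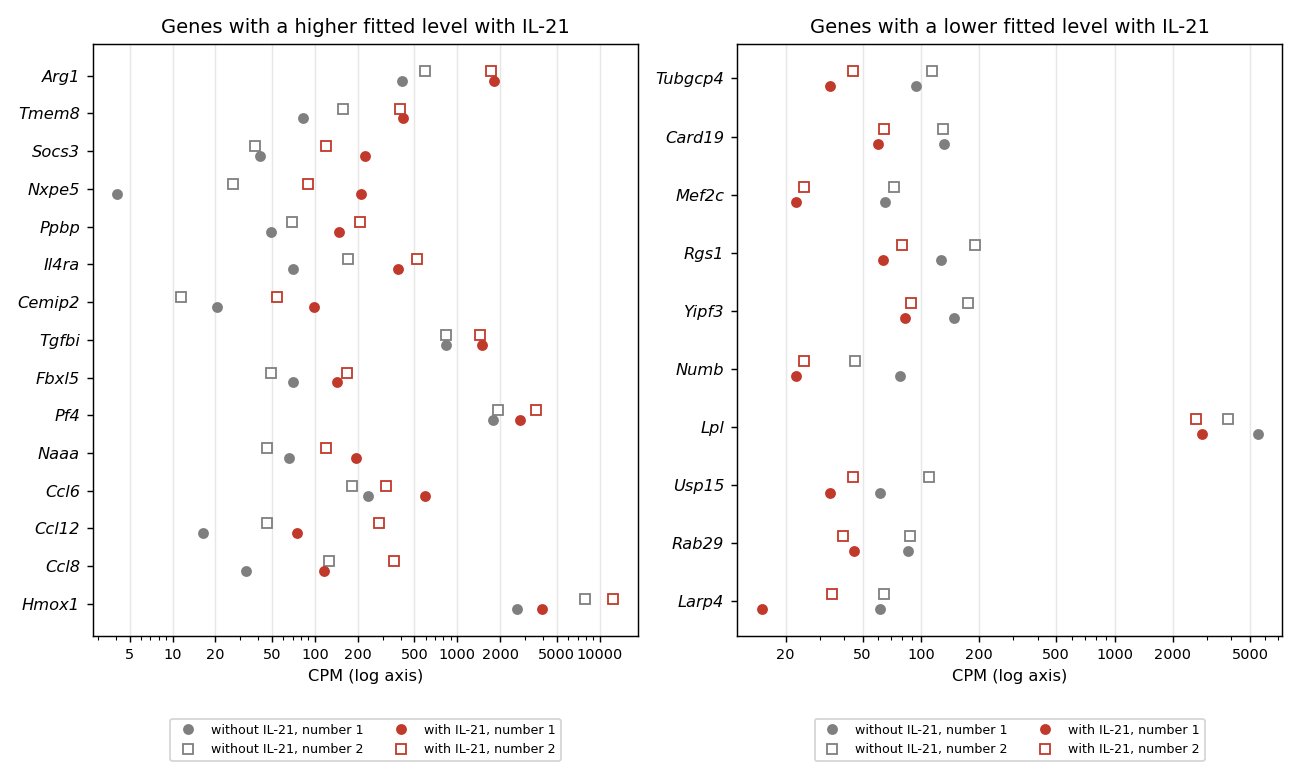
CPM on a log axis in each of the 4 Ly6Chi libraries for 15 genes with a higher and 10 genes with a lower fitted level with IL-21, with circles for number 1, squares for number 2, grey without and red with IL-21. Apart from Ccl8 and Hmox1, every gene has its red and grey symbols fully apart. For most of them this follows from choosing genes whose groups do not overlap. Arg1 is the 1 gene that passed the test.

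Other genes with small p-values had varied roles. Tmem8, a membrane protein gene, came closest to the threshold after Arg1, with an edgeR adjusted p of 0.0947. It had 82.0 and 156 CPM without and 414 and 397 CPM with IL-21, a log2 difference of 1.76 (SE 0.30), and 2.24 within number 1 and 1.31 within number 2. Nxpe5 had 4.10 and 26.7 CPM without and 211 and 89.4 CPM with IL-21, and its log2 difference of 3.25 (SE 0.71) rests on 1 count in the unstimulated library 1 and ranged from 2.48 to 5.09 with 1 library left out. Tgfbi, which encodes a matrix protein induced by TGF-beta, had 832 and 835 CPM without and 1491 and 1449.8 CPM with IL-21, and the 2 numbers gave nearly the same difference, 0.84 within number 1 and 0.79 within number 2.

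Naaa, an acid amidase of the lysosome, had 65.6 and 45.8 CPM without and 196 and 119 CPM with IL-21. Cemip2, a cell-surface protein gene that takes part in breaking down hyaluronan, had 20.5 and 11.4 CPM without and 97.9 and 54.6 CPM with IL-21, and its counts were 5 and 3 without and 26 and 11 with IL-21. Fbxl5, a ubiquitin ligase subunit that senses iron, had 69.7 and 49.6 CPM without and 143 and 169 CPM with IL-21 and a log2 difference of 1.38 (SE 0.39). It overlaps Bst1 on the other strand by 98 exonic bases, and Bst1 held 447 counts. Reads within those bases cannot be assigned if strand was not used, and whether they lie near the 3′ end that was read was not examined.

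Among lower genes whose groups do not overlap and that average at least 10 counts, the 10 with the smallest p-values had edgeR adjusted p-values close to 1. Lpl, lipoprotein lipase, which frees fatty acids from lipoproteins, had 5477 and 3871 CPM without and 2820.1 and 2631 CPM with IL-21. Both stimulated libraries were below both unstimulated ones, with a log2 difference of -0.78 (SE 0.27) and -0.96 within number 1 and -0.56 within number 2. It had a mean of 907.5 counts per library, and the other 9 genes had means from 10.5 (Numb) to 30.5 (Yipf3).

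Mef2c, a transcription factor of the myeloid lineage whose promoter window is shown above, had 65.6 and 72.5 CPM without and 22.6 and 24.8 CPM with IL-21, with -1.30 within number 1 and -1.32 within number 2. Tubgcp4, a subunit of the gamma-tubulin complex, had 94.3 and 114 CPM without and 33.9 and 44.7 CPM with IL-21 and -1.31 within number 1 and -1.23 within number 2. Its exons overlap Trp53bp1 on the other strand by 2130 bases. Rgs1, which dampens signalling from chemokine receptors, had 127 and 191 CPM without and 64.0 and 79.4 CPM with IL-21. Card19 had 131 and 129.7 CPM without and 60.2 and 64.5 CPM with IL-21, and Yipf3, a protein gene of the Golgi, had 148 and 175 CPM without and 82.8 and 89.4 CPM with IL-21.

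Numb, an inhibitor of Notch signalling, had 77.9 and 45.8 CPM without and 22.6 and 24.8 CPM with IL-21, and Larp4, which binds poly(A) tails, had 61.5 and 64.8 CPM without and 15.1 and 34.8 CPM with IL-21. For Usp15, a deubiquitinase, the log2 difference was -1.15 (SE 0.41), and for Rab29, a small GTPase of the Golgi and lysosome, it was -1.02 (SE 0.36). In all 10 genes the 2 numbers gave the same sign, which follows from choosing genes whose groups do not overlap.

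The arginine and polyamine list had 9 tested members of 21. Besides Arg1, 5 were higher and 3 lower, with a median of 0.11, -0.11 within number 1 and 0.62 within number 2. Oaz2, an antizyme that restrains polyamine synthesis, had a log2 difference of 0.65 (SE 0.48), Paox, a polyamine oxidase that overlaps Echs1 on the other strand, 0.68 (SE 0.49), and Sat1, which acetylates polyamines for export, -0.25 (SE 0.26). Nos2, the enzyme that competes with arginase for arginine, had 0 to 1 counts per library. Arg2, the mitochondrial arginase, had 2 and 3 counts without and 14 and 5 with IL-21, too few to be tested.

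Genes of alternative activation, the state that interleukin 4 induces, were split. Of 13 tested, 7 were higher and 6 lower with a median of 0.07. Arg1 and Il4ra led those that were higher, followed by F13a1, the coagulation factor XIII subunit, with 73.8 and 91.5 CPM without and 184 and 159 CPM with IL-21. Clec7a, the beta-glucan receptor, and Clec10a, a lectin for galactose, were lower without overlap, at 209 and 91.5 CPM without and 79.1 and 79.4 CPM with IL-21 for the first and 57.4 and 53.4 CPM without and 30.1 and 34.8 CPM with IL-21 for the second. Retnla, a common mark of that state, was at 0 in all 8 libraries.

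In the list of wound-healing factors and matrix genes 9 of 15 were higher and 6 lower, with a median of 0.25 in the fit, 0.02 within number 1 and -0.10 within number 2. Vcan, the proteoglycan versican, had 86.1 and 61.0 CPM without and 275 and 119 CPM with IL-21, with 1.60 within number 1 and 0.89 within number 2. Plau, urokinase, had 69.7 and 30.5 CPM without and 26.4 and 19.9 CPM with IL-21. Summed counts of 10 fibroblast markers were 63 and 100 without and 55 and 42 with IL-21, and the part of those cells in the matrix values was not tested.

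Lipid genes lay on both sides. The 21 tested had 9 higher and 12 lower and a median of -0.06. Beside Lpl, the lysosomal acid lipase Lipa had 1254 and 1056 CPM without and 851 and 719.9 CPM with IL-21, lower without overlap and with -0.56 within number 1 and -0.55 within number 2. The fatty acid carriers Fabp4 and Fabp5 stood on the other side, Fabp4 with 250.1 and 217 CPM without and 361 and 338 CPM with IL-21 and Fabp5 with 1628 and 1869 CPM without and 2169 and 2800.2 CPM with IL-21. Neither pair overlapped. Fabp4 is also on the endothelial list. The lysosomal list, which holds Lipa as well, had 22 of 43 higher and a median of 0.00.

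Genes of glycolysis and the hypoxia response had 16 of 22 tested members higher, 7 above and 2 below without overlap (15.9% and 15.6% over all genes), and a median of 0.30, 0.22 within each number. Next to Hif1a these were led by P4ha1, a collagen prolyl hydroxylase, with 61.5 and 57.2 CPM without and 113 and 89.4 CPM with IL-21. Ldha, lactate dehydrogenase, had 287 and 214 CPM without and 448 and 293 CPM with IL-21, and Pkm, pyruvate kinase, had 804 and 889 CPM without and 1178 and 1117 CPM with IL-21. All of these are below 2-fold. The nuclear genes of the respiratory chain had 24 of 69 higher and 45 lower and a median of -0.10, which was 0.01 within number 1 and -0.21 within number 2. Atp5c1, the gamma subunit of ATP synthase, had 77.9 and 95.3 CPM without and 37.7 and 59.6 CPM with IL-21.

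Antigen presentation genes lay on both sides, and none had an unadjusted p under 0.05 by edgeR. Of 20 MHC class I and immunoproteasome genes 7 were higher and 13 lower, with a median of -0.17. The 8 class II and costimulation genes had 4 higher and 4 lower and a median of -0.13, with 1 above and 4 below without overlap, beside 15.9% and 15.6% of all genes tested. The 4 lower ones follow. Cd74, the invariant chain, had 143 and 225 CPM without and 124 and 124 CPM with IL-21. H2-Ab1 had 394 and 343 CPM without and 328 and 263 CPM with IL-21, H2-Eb1 152 and 149 CPM without and 120.5 and 109 CPM with IL-21, and H2-DMb1, which helps load peptides, 86.1 and 76.3 CPM without and 60.2 and 54.6 CPM with IL-21. Psmb9, an immunoproteasome subunit, had a log2 difference of -0.62 (SE 0.33) and overlaps Tap1 on the other strand by 212 bases. Interferon-stimulated genes had 29 of 55 higher and a median of 0.01, -0.08 within number 1 and 0.15 within number 2. Gbp7, a guanylate-binding protein, had a log2 difference of 0.75 (SE 0.42), beside Parp9, which overlaps Dtx3l on the other strand, at 0.61 (SE 0.34).

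Ribosomal protein genes had 22 of 70 higher and 48 lower, with a median of -0.10. In both numbers 10 were higher and 34 lower, beside 1445 and 1407 of all 5256 genes tested. Without overlap 3 lay above and 6 below (15.9% and 15.6% over all genes). At an unadjusted p under 0.05 by edgeR 2 were higher, Rps15 and Rpl10 (described below), and 0 lower. Rpl32 had 369 and 289.8 CPM without and 256 and 189 CPM with IL-21 and Rps24 853 and 683 CPM without and 674 and 402 CPM with IL-21. Their share of all counts was 1.28 to 1.82% per Ly6Chi library. Actin cytoskeleton genes had 26 of 42 lower, 9 below and 3 above without overlap (15.6% and 15.9% over all genes), and a median of -0.07. At an unadjusted p under 0.05 by edgeR 1 was lower, Fscn1, and 1 higher, Cnn2, with a log2 difference of 1.06 (SE 0.42). Fscn1, an actin-bundling protein of migrating cells, had 45.1 and 45.8 CPM without and 11.3 and 4.96 CPM with IL-21, from 11, 12, 3 and 1 counts.

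The complement list had 8 of 11 higher and a median of 0.15. C1qa, a chain of the first complement component, had 496 and 477 CPM without and 579.8 and 561 CPM with IL-21 and C1qb 319.8 and 461 CPM without and 549.7 and 492 CPM with IL-21. The clearance receptors for dead cells had 7 of 17 higher. Dab2, an adaptor of endocytosis, stood out among them with 303 and 263 CPM without and 463 and 536 CPM with IL-21, a log2 difference of 0.82 (SE 0.23), while Mertk, which recognises dying cells, had 0.36 (SE 0.29) and Trem2, a lipid receptor, -0.38 (SE 0.25). Anxa1, a mediator of resolution, had 717 and 549 CPM without and 437 and 367 CPM with IL-21, and Lgals1, galectin 1, 578 and 419.5 CPM without and 377 and 263 CPM with IL-21.

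**Figure D4:**
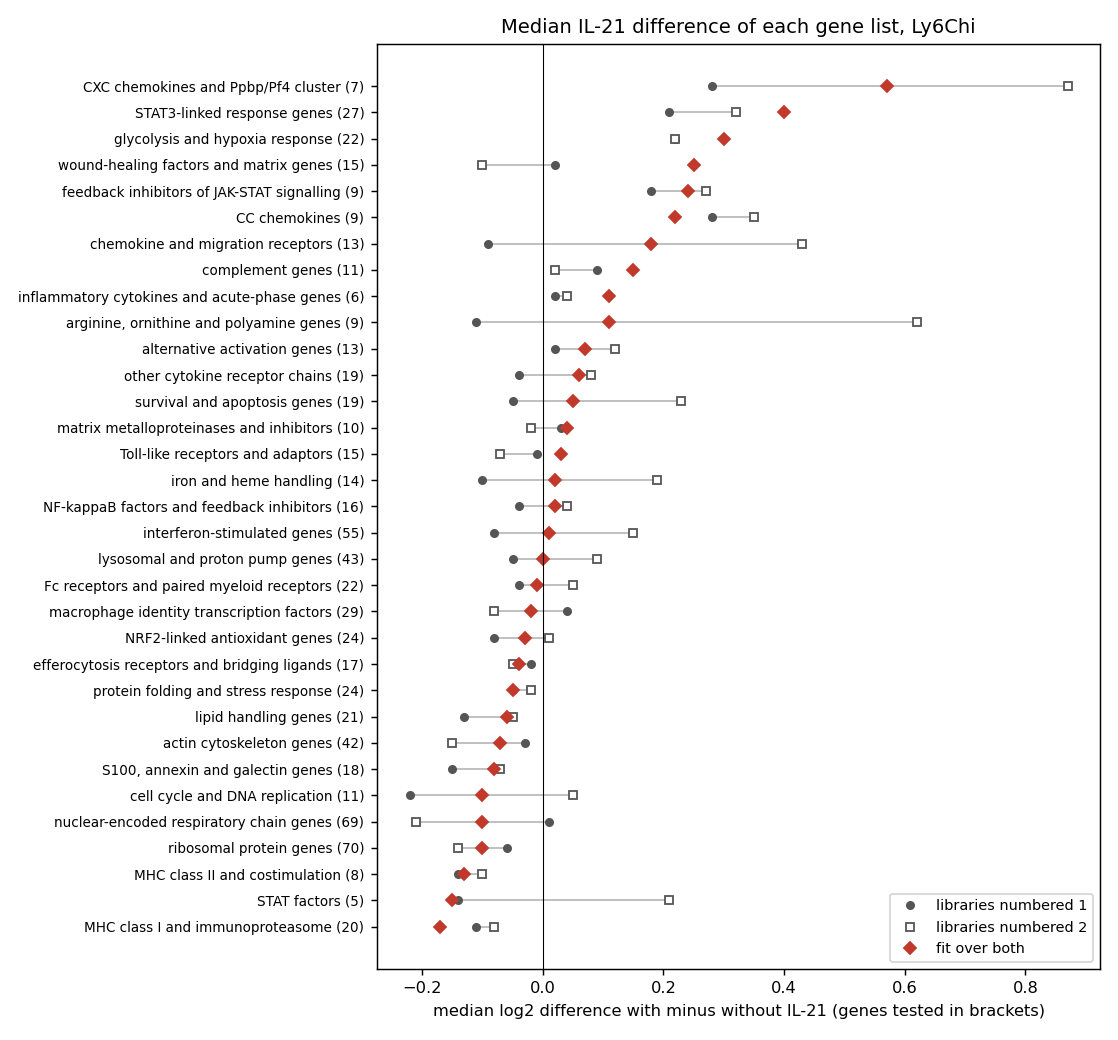
Median log2 difference with minus without IL-21 of each gene list with at least 5 genes tested, with dots for the libraries numbered 1, squares for those numbered 2 and diamonds for the fit over both, which adds a smaller prior count. The CXC, CC, STAT3-linked, feedback and glycolysis lists lie above 0 for both numbers. So do the complement, alternative activation and inflammatory cytokine lists, each at only 0.02 in 1 of the numbers. The MHC class I, MHC class II, lipid, S100, ribosomal, actin, efferocytosis, protein folding and Toll-like lists lie below 0 for both numbers. The arginine list runs from -0.11 to 0.62.

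Transcription factors of macrophage identity were balanced, with 14 of 29 higher. Cebpa, a factor of myeloid commitment, had 246 and 289.8 CPM without and 151 and 223 CPM with IL-21, lower without overlap. Of the NF-kappaB genes, 9 of 16 were higher. Rel, an NF-kappaB subunit, had 82.0 and 80.1 CPM without and 52.7 and 19.9 CPM with IL-21, with -0.58 within number 1 and -1.70 within number 2. Among other cytokine receptor chains, Ifnar2, of the type I interferon receptor, had 0.46 (SE 0.23), and Il10rb, of the interleukin 10 receptor, -0.42 (SE 0.22). The last 2 share exons with an annotated readthrough gene, so their counts are uncertain. Paired receptors on myeloid cells gave Cd300ld at 193 and 198 CPM without and 358 and 313 CPM with IL-21 and Slamf9 at 45.1 and 64.8 CPM without and 3.77 and 19.9 CPM with IL-21, on opposite sides.

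Some abundant genes went in opposite directions in the 2 numbers. The largest gaps among genes with a mean of at least 50 counts were, beside Saa3, in Hnrnpdl, Gm13341, Stk38 and Irgm2. Stk38, a kinase, had 242 and 183 CPM without and 143 and 298 CPM with IL-21, -0.73 within number 1 and 0.68 within number 2. Irgm2, an interferon-induced GTPase, had 221 and 221 CPM without and 132 and 328 CPM with IL-21, -0.72 within number 1 and 0.55 within number 2. For the RNA-binding protein gene Hnrnpdl the values were -0.56 within number 1 and 0.78 within number 2, and for Gm13341 they were 0.34 within number 1 and -1.05 within number 2. In each of these 4 the groups overlapped.

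Marker lists of other cell types held counts in a few genes each. Of T cell markers Cd3d, Cd3e and Cd3g were at 0 in the 4 libraries, while Il7r, the interleukin 7 receptor, had 586 and 915 CPM without and 561 and 834 CPM with IL-21. Of neutrophil markers Ly6g, Ltf, Ngp and Retnlg were at 0, and the summed list, 1400 to 2140 CPM without and 1690 to 2340 CPM with IL-21, came almost wholly from Mmp8. The endothelial list summed to 389 and 477 CPM without and 467 and 680 CPM with IL-21, nearly all from Kdr and Fabp4, with Pecam1, Cdh5, Tek, Emcn and Cldn5 at 0. B cell markers summed to 0 to 1 counts and cardiomyocyte markers to 0 to 18. The dendritic cell list summed to 418 and 385 CPM without and 331 and 268 CPM with IL-21, with Zbtb46, Clec9a, Siglech and Cd209a at 0. Whether any of these bears on the gene values was not tested.

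The response was set against that of Ly6Clo macrophages cultured in the same way, which share no library with it. The difference between the 2 responses passed for 0 of 5256 genes by edgeR, with 92 at an unadjusted p under 0.05. DESeq2 and limma-voom called 0 as well, with 13 and 89. In Ly6Chi cells Arg1 had a log2 difference of 1.82 (SE 0.23), beside 1.85 (SE 0.23) for Ly6Clo cells, and the 2 differed by 0.03 (SE 0.32). For Socs3 the values were 2.14 (SE 0.40) and 3.41 (SE 0.46), and for Il4ra 1.89 (SE 0.42) and 2.17 (SE 0.40). Cemip2 was at 2.27 (SE 0.56) here and at 0.18 (SE 0.45) in Ly6Clo, a difference of -2.09 (SE 0.74) that did not pass.

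The smallest p for the difference between subsets belonged to Rpl10, with an edgeR adjusted p of 0.394, and it was the 1 gene that passed for this difference in the fit with the replicate block. This ribosomal protein gene had 201 and 179 CPM without and 354 and 343 CPM with IL-21 in Ly6Chi and log2 differences of 0.87 (SE 0.25) there and -1.0 (SE 0.24) for Ly6Clo. Its last 400 bases are identical to those of Rpl10-ps3, which held 981 counts in the Ly6Chi libraries, so reads may have been divided between them. With both summed, the log2 ratio of stimulated to unstimulated CPM in Ly6Chi was 0.13 within number 1 and 0.20 within number 2, against 0.82 and 0.94 for Rpl10 alone. In Ly6Clo the sum gave -0.24 and -0.17, against -0.69 and -1.31. The next smallest p-values were those of Rab29, Cnn2, Gpatch4 and Zc3h12d. Cnn2, an actin-binding protein, had 41.0 and 26.7 CPM without and 71.5 and 69.5 CPM with IL-21 in Ly6Chi, while Gpatch4 had 24.6 and 42.0 CPM without and 56.5 and 64.5 CPM with IL-21 and Zc3h12d 73.8 and 91.5 CPM without and 37.7 and 59.6 CPM with IL-21, and none of them passed.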

How the data were processed

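Sorted macrophages gave 8 libraries, made from 2.5 ng of RNA with a QuantSeq 3′ forward kit and its module for unique molecular identifiers and sequenced from one end over 75 bases, as the labels' protocols state. The authors deposited expected counts for each Ensembl gene, estimates that are often not whole. The build mm10 and DESeq2 appear in the submitters' processing notes without a version. Aligner, counter, annotation, and any use of identifiers or strand: not given in the sources used here. The planned design assumed whole counts, so values were rounded first.

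Identifiers were matched to GENCODE M21 (53237 of 53342). Of 15 mitochondrially encoded genes looked for, 0 were among them, so a mitochondrial share could not be read. Genes were kept by filterByExpr over 4 groups (minimum count 10, minimum total 15), leaving 5256. All 8 libraries, with totals of 224329 to 483593 counts, entered 1 fit with 4 group means after TMM scaling (R 4.3.3, edgeR 4.0.16, limma 3.58.1). The robust quasi-likelihood F test was adjusted by Benjamini-Hochberg and called under 0.05. The fit had 4 residual degrees of freedom, and its code was tested on simulated counts. Those counts were drawn without a difference between replicate numbers, so they do not show how the test behaves where the numbers differ. CPM use TMM-scaled totals of the genes tested, within-number differences are of log2 CPM with a prior count of 2, and the SE comes from the fold change and its F statistic. The CPM given for 3 counts covers counting error alone.

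The genes and lists were chosen with earlier results of these data known. Named were the genes called with or without the replicate block, up to 10 per direction with the smallest p among genes whose groups do not overlap and average at least 10 counts, up to 4 per list, the 10 most abundant genes (not described), up to 5 whose numbers lay furthest apart or whose subset difference had the smallest p, and 18 fixed genes. Some of these are not reported here. Alternatives were DESeq2 1.42.0, limma-voom, DESeq2 size factors, other filters, unrounded values, the Ly6Chi libraries alone, the replicate block and leaving out each library. Shared 3′ ends were searched with BLAST+ 2.17.0 at 97% identity over at least 75 bases, and exon overlaps of at least 50 bases were listed.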

Additional observations from a re-analysis of the deposited data

How the results depend on the processing

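The number of genes called was 1 with DESeq2, limma-voom, DESeq2 size factors, unrounded counts, a mean of at least 20 counts and the Ly6Chi libraries alone, and that gene was Arg1 each time. With no filter on low counts it was 8, among them Arg1, Il4ra, Nxpe5, Socs3 and Tmem8, and the difference between subsets then called 1 (Rpl10). Leaving out 1 library gave 0 to 3 calls. There were 0 without the stimulated Ly6Chi library 1, 2 without the unstimulated Ly6Chi library 1 (Tmod1 and Tstd2, both lower), 3 without the stimulated library 2 (Arg1, Saa3 and Socs3) and 2 without the unstimulated Ly6Clo library 1 (Arg1 and Tmem8). The difference between subsets gave 0 in each case. With a prior count of 0.5 the genes at least 2-fold apart within both numbers were 19 higher and 5 lower, and with a mean of at least 20 counts 0 were lower. With no filter, an alternative chosen after seeing the data, 9.99% of genes lay above without overlap. The cause of these changes was not tested.

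The replicate number as a block gave 14 calls, with 345 at an unadjusted p under 0.05 by edgeR, and 1 call for the difference between subsets (Rpl10 again). The labels do not say what the numbers stand for, so the fit without the block was kept as planned. The deviations from the group means of same-numbered libraries correlated at 0.431 between the Ly6Chi groups and at 0.333 to 0.569 over the 6 pairs of groups.

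For 91 of the named genes these alternatives gave 1433 values. Of these values 10 changed sign, in 7 genes, and all 10 came from leaving out 1 library. Hnrnpdl, Gm13341, Stk38, Irgm2, Stat5b and Il1b, whose signs differed between the numbers, were not among the 91, so the counts do not cover them. Over the 8 libraries left out in turn, the log2 difference ranged from -0.41 to 1.65 for Hmox1, -0.08 to 0.54 for Il2rg, -0.93 to 0.29 for Jak2, -0.01 to 0.46 for Stat2, -0.35 to 0.09 for Stat6, -0.36 to 0.11 for Ly6c2 and -1.60 to 0.79 for Mmp12. The sign changed without the unstimulated library 1 (Jak2, Stat6, Ly6c2, Mmp12), the stimulated library 2 (Hmox1, Jak2, Stat2, Ly6c2, Mmp12) or the unstimulated library 2 (Il2rg) of Ly6Chi. The value moved by over 1.5 times with 1 library left out in 17 of the 91 genes covered (Ccl12, Ccl8, Ccr2, Clec7a, Cxcl5, Fscn1, Hmox1, Il4ra, Jak2, Larp4, Mmp12, Nxpe5, Plau, Rel, Saa3, Slamf9 and Vcan). At these depths 3 counts are 11.3 to 14.9 CPM, so small differences of scarce transcripts were poorly resolved.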
